A study of Mus musculus with 16 samples.

Results

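The 2 mature arms of the mouse microRNA miR-21a were followed in conventional type 1 dendritic cells (cDC1s) sorted from spleen. They were taken by their miRBase identifiers, MIMAT0000530 for miR-21a-5p and MIMAT0004628 for miR-21a-3p, and are 2 of the 808 mature microRNAs with at least 1 count in the raw table, which lists a further 45 at 0 in every library. Both passed the filter on low counts, which left 255 microRNAs to test. The 16 small RNA libraries, all from strain C57BL6, formed 4 groups of 4. Xbp1 KO cells lack the transcription factor XBP1 and are called Xbp1-deficient. Xbp1-Ire1 KO cells lack both XBP1 and IRE1 and are called compound-deficient, and each line has its own wild-type group. The sources used here do not give the age of the mice, how or in which cells the genes were deleted, or whether replicates are separate mice, and the spread behind the p-values may thus be technical. The genes that define cDC1s, and the deleted genes, give messenger RNAs and are absent from a microRNA table, so neither the cell type nor the genotype labels were checked.

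A microRNA hairpin is cut out of its primary transcript by Drosha and trimmed by Dicer to a duplex, of which usually one strand, the guide, is kept by Argonaute, while the other, the passenger strand, is mostly lost. The base-pairing of positions 2 to 8, the seed, with a messenger RNA guides repression. In miR-21 the 5p arm is the usual guide. It is known in myeloid cells as a microRNA induced on activation, with Pdcd4, a brake on translation, and the interleukin-12 subunit gene Il12a among its described targets. IRE1, a sensor of unfolded protein in the endoplasmic reticulum, carries a ribonuclease that splices Xbp1 mRNA and has been described to cut some microRNA precursors. The comparisons here ask whether either arm, or the balance between them, differed with loss of XBP1 or of both proteins.

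The mature sequences, from RefSeq on build GRCm38.p6, are shown to set the arms apart from each other and from the similar mouse microRNAs miR-21b and miR-21c. Capitals mark the seed.
miR-21a-5p: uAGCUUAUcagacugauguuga
miR-21a-3p: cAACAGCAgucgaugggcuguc
miR-21b: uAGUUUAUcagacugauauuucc
miR-21c: uAGCUUAUcagacugguacaa
Both arms of miR-21a are 22 bases long and lie on the minus strand of chromosome 11, the 5p arm at chr11:86584120-86584141 and the 3p arm at chr11:86584082-86584103, with 16 bases between them. In the GENCODE M21 annotation of the same build, the 92-base Mir21a hairpin (chr11:86584067-86584158) lies in the 3′ UTR within exon 12 of Vmp1, a gene for a vacuole membrane protein that acts in autophagy. Of 1679 mature microRNA names in the RefSeq table, miR-21c was the only other with the seed of miR-21a-5p, and no other had that of miR-21a-3p. Counted from the 5′ end, miR-21c shares the first 15 bases of miR-21a-5p, whereas miR-21b differs within the seed by C4U. As the other identifiers come without names, counts of miR-21b and miR-21c are not analysed here, and short reads may have been shared between them and miR-21a-5p.

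The total microRNA count ranged from 175165 to 1403393 per library. The Xbp1 line was sequenced more deeply, with group means of 825763 (wild type) and 1065596 (deficient) against 518607 and 524042 in the compound line. Molecular identifiers are not described, and intervals on counts cover counting error only. In these bulk samples, fewer cells of a type and less RNA per cell cannot be told apart.

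miR-21a-5p was among the most abundant microRNAs of these cells, and its levels overlapped between all 4 groups. On mean CPM (counts scaled to a common library size by TMM, a mean that trims extreme features) it ranked 5 of 255, at 46453 CPM over the 16 libraries. The Xbp1-line wild type had 53875, 41719, 45896 and 56353 CPM in replicates 4, 5, 6 and 8. Xbp1-deficient cells had 39574, 37884, 36519 and 51466 CPM in replicates 1 to 4. The first 3 of these lay below every wild-type library of the line, while replicate 4 lay inside the wild-type range. The compound-line wild type had 48721, 46060, 46414 and 56215 CPM in replicates 1 to 4. Compound-deficient cells had 34920, 56014, 41545 and 50071 CPM, the widest spread of the 4 groups, with replicates 1 and 3 below all wild-type libraries of the line and replicates 2 and 4 inside their range.

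In order of the group means, miR-21a-5p stood at 49461 ± 6822 CPM (SD, n = 4) in wild-type cells of the Xbp1 line, 49353 ± 4725 in those of the compound line, 45638 ± 9291 in compound-deficient and 41361 ± 6852 in Xbp1-deficient cells. Neighbours in this order differed by less than their SD. Its share of all counts was 5.00% ± 0.640 (SD, n = 4) in wild-type and 3.90% ± 0.707 in deficient cells of the Xbp1 line, and 5.23% ± 0.387 in wild-type and 4.51% ± 1.01 in deficient cells of the compound line. By raw count it was the fourth most abundant microRNA in all 8 wild-type libraries. It ranked 7, 7, 9 and 5 in Xbp1-deficient replicates 1 to 4, and 6, 4, 6 and 4 in compound-deficient replicates 1 to 4. A rank also moves with the microRNAs around it, and ranks were not tested.

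miR-21a-3p, the arm usually discarded, was far less abundant and varied more between libraries. It averaged 553 CPM over the 16 libraries, rank 71 of 255, on 94 to 908 reads per library. The Xbp1-line wild type had 708, 834, 683 and 581 CPM in replicates 4, 5, 6 and 8. Xbp1-deficient cells had 590, 671, 587 and 470 CPM in replicates 1 to 4, a range that overlaps the wild type. The compound-line wild type had 396, 304, 669 and 420 CPM in replicates 1 to 4, with replicate 3 well above the other 3. Compound-deficient cells had 648, 261, 404 and 624 CPM, so that the groups of this line overlapped almost wholly.

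The group means of miR-21a-3p followed another order than those of the 5p arm. They were 702 ± 104 CPM (SD, n = 4) in wild-type and 580 ± 82.5 in deficient cells of the Xbp1 line, then 484 ± 185 in deficient and 447 ± 156 in wild-type cells of the compound line. The first and second of these differed by more than either SD with overlapping ranges, and the other neighbours by less than the larger SD. Across the 16 libraries the highest level was 3.19 times the lowest for miR-21a-3p, against 1.61 times for miR-21a-5p.

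**Figure D1:**
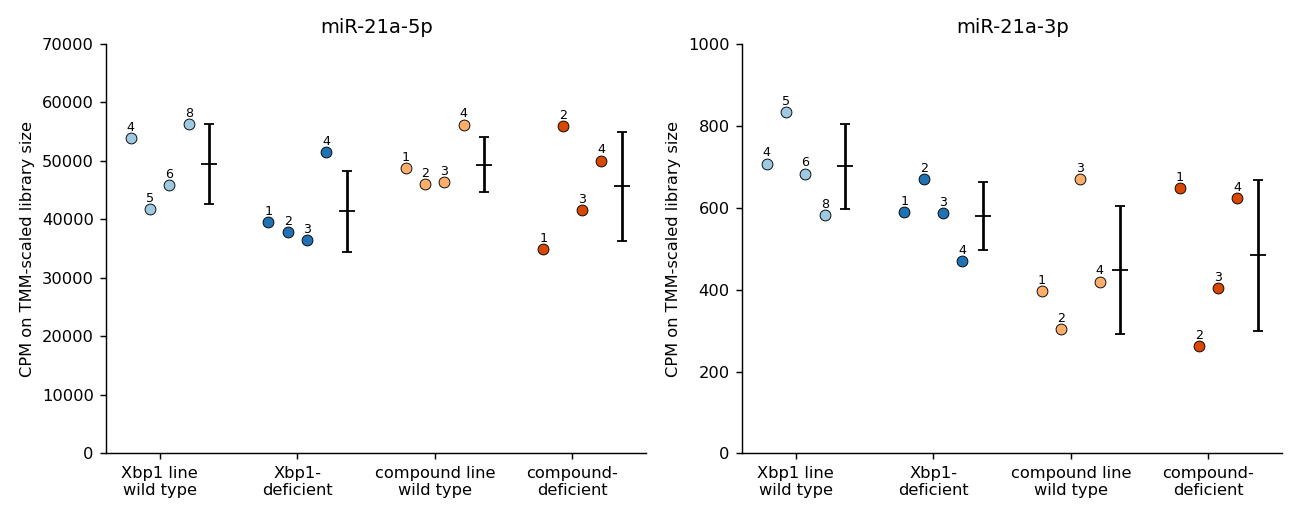
CPM of miR-21a-5p (left) and miR-21a-3p (right) on TMM-scaled library sizes, 1 point per library labelled with its replicate number, with the group mean and SD as a bar beside the points. The 5p arm lies between 34920 and 56353 CPM with overlapping groups, and the 3p arm between 261 and 834 CPM, with 3 of the 4 compound-line wild-type libraries under every Xbp1-line wild-type library.

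**Figure D2:**
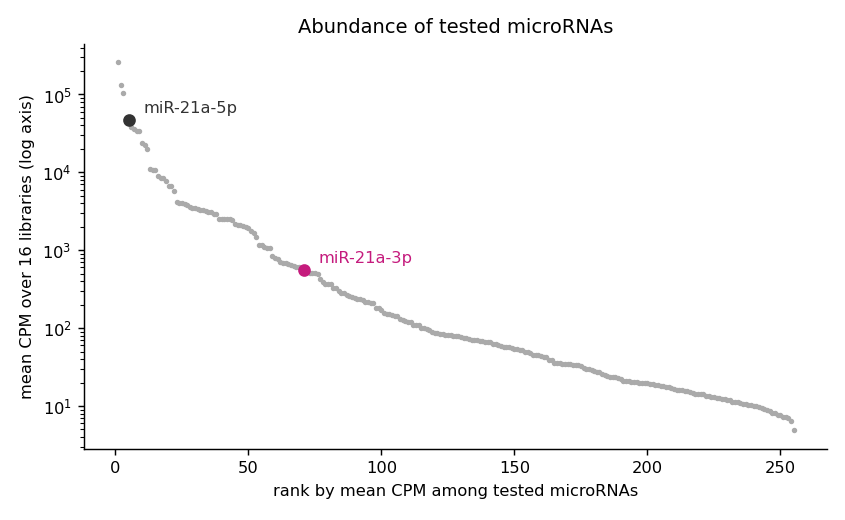
Mean CPM over 16 libraries (log axis) of the 255 tested microRNAs against their rank. miR-21a-5p is at rank 5 with 46453 CPM and miR-21a-3p at rank 71 with 553 CPM.

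Neither arm passed the test in Xbp1-deficient cells, where both had lower means than in wild type. The log2 fold change in Xbp1-deficient cells against their wild type was −0.26 (SE 0.15, 95% interval −0.57 to 0.05) for miR-21a-5p, with an edgeR quasi-likelihood adjusted p of 0.458. The interval of the 5p arm spans levels from 0.674 to 1.04 times wild type. For miR-21a-3p the value was −0.28 (SE 0.26, interval −0.81 to 0.26) with an edgeR adjusted p of 0.693. In this comparison 0 of the 2 arms passed, where 2.35% of the 255 microRNAs passed. The 5p value ran from −0.12 with upper-quartile scaling to −0.36 (edgeR adjusted p 0.194) with total counts alone. With 1 library left out it ran from −0.17 without wild-type replicate 8 to −0.34 (edgeR adjusted p 0.261) without Xbp1-deficient replicate 4. The 3p value ran from −0.12 without wild-type replicate 5 to −0.38 with total counts alone. Of the 255 microRNAs, 54.9% differed by more than the 5p arm in this comparison, in either direction.

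In compound-deficient cells against the wild type of their line, neither arm passed either. miR-21a-5p gave −0.11 on the log2 scale (SE 0.15, interval −0.43 to 0.20) with an edgeR adjusted p of 0.783. miR-21a-3p gave 0.11 (SE 0.26, interval −0.44 to 0.66) with an edgeR adjusted p of 0.946. Here 0 of the 2 arms passed against 5.88% of the 255 microRNAs. The 5p value was −0.39 (edgeR adjusted p 0.166) with upper-quartile scaling. With 1 library left out it ran from −0.29 (edgeR adjusted p 0.312) without compound-deficient replicate 2 to −0.079 without compound-deficient replicate 1. The direction of the 3p value was not stable, since it was −0.15 with upper-quartile scaling and −0.15 without compound-deficient replicate 1.

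Whether the change in compound-deficient cells was another one than in Xbp1-deficient cells was tested as the difference of both. It was 0.14 (SE 0.21, interval −0.30 to 0.59) for miR-21a-5p and 0.38 (SE 0.37, interval −0.39 to 1.15) for miR-21a-3p, with edgeR adjusted p of 0.884 and 0.843. The 3p difference was 0.017 with upper-quartile scaling and 0.094 without compound-deficient replicate 1. No microRNA of the 255 passed this test in edgeR (0%), with 26 at an unadjusted p under 0.05, 1 called by DESeq2 and 0 by limma voom. Compound-deficient cells set directly against Xbp1-deficient cells, a comparison that holds any difference between the lines, gave 0.14 (SE 0.15, interval −0.17 to 0.45) for miR-21a-5p. The same comparison gave −0.26 (SE 0.26, interval −0.81 to 0.28) for miR-21a-3p, and the edgeR adjusted p was 0.649 and 0.641. In this comparison 0 of the 2 arms passed against 7.45% of the 255 microRNAs. The 5p direction turned without compound-deficient replicate 2, to −0.054, and to −0.13 with a depth covariate (the log2 total count). The 3p value was −0.026 with that covariate and −0.51 with upper-quartile scaling, and ran from −0.55 without compound-deficient replicate 1 to −0.15 without replicate 2.

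The largest log2 difference in size among these comparisons was that of the 3p arm between the wild types. For the 5p arm, the log2 difference between the compound-line and the Xbp1-line wild type was −0.0032 (SE 0.15, interval −0.32 to 0.31, edgeR adjusted p 0.990). miR-21a-3p was lower in the compound-line wild type by a log2 value of −0.65 (SE 0.26, interval −1.19 to −0.10), and only 17.6% of the 255 microRNAs differed more. Its unadjusted p was 0.0226, the thirteenth smallest, and its edgeR adjusted p of 0.366 did not pass. In edgeR 0 of the 255 microRNAs (0%) passed between the wild types, with 24 at an unadjusted p under 0.05 4 called by DESeq2 and 0 by limma voom. Without the filter on low counts the 3p difference was −0.76 and passed, with an edgeR adjusted p of 0.0318. With the depth covariate it was −0.52 (edgeR adjusted p 0.519).

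**Figure D3:**
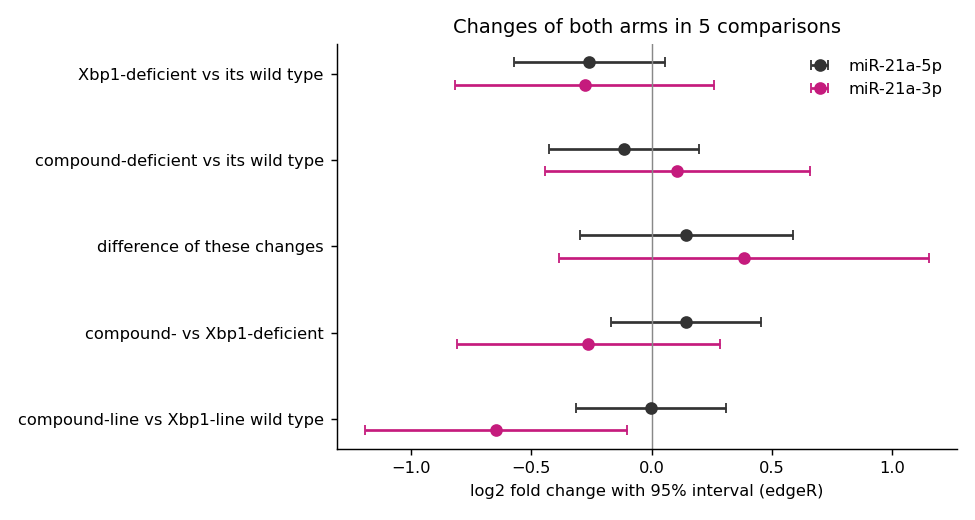
Log2 fold changes of miR-21a-5p (dark) and miR-21a-3p (pink) in 5 comparisons, with 95% intervals from the edgeR fit. The intervals include 0 in all cases but miR-21a-3p between the wild types, at −0.65 (interval −1.19 to −0.10).

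The balance between the arms was read as the number of 5p reads per 3p read, a ratio in which library size and scaling cancel. The 5p arm dominated in every library, by 50.03 to 214 reads per 3p read. The Xbp1-line wild type had 76.1, 50.03, 67.2 and 97.0 in replicates 4, 5, 6 and 8, and Xbp1-deficient cells had 67.1, 56.5, 62.2 and 109 in replicates 1 to 4. These 2 groups covered nearly the same range. The compound-line wild type had 123, 152, 69.4 and 134 in replicates 1 to 4, with replicates 1, 2 and 4 above every library of the Xbp1 line and replicate 3 inside their range. Compound-deficient cells had 53.9, 214, 103 and 80.3 in replicates 1 to 4, a span of 3.98 times within the group, with the highest ratio of all libraries in replicate 2.

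The geometric mean ratio was 70.5 in wild-type and 71.2 in deficient cells of the Xbp1 line, and 98.5 in deficient and 114 in wild-type cells of the compound line. On the log2 scale the means were 6.14 ± 0.40 (SD, n = 4), 6.15 ± 0.42, 6.62 ± 0.84 and 6.84 ± 0.50 in the same order, and neighbours in this order differed by less than the larger SD. Counting error alone did not cover the spread within groups, as the chi-square of the arm counts per degree of freedom was 36.3 to 70.03. The 95% Wilson interval of a single ratio reached at most 22.4% from the ratio.

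In none of the 5 comparisons did the arm ratio pass an exact two-sided permutation test, for which 4 against 4 libraries cannot go below p = 0.0286. A single comparison at that smallest exact p would have an adjusted p of 0.143. The 4-against-4 tests thus had little room to pass and say little on whether the ratios differ. Xbp1-deficient cells differed from their wild type by 0.01 log2 units (SE 0.29, exact p = 1, adjusted over 5 tests 1). Compound-deficient cells differed from theirs by −0.22 (SE 0.49, exact permutation p = 0.686, adjusted 0.857). The difference of both was −0.23 (SE 0.57, exact permutation p over 4900 relabellings 0.678, adjusted 0.857). This test was not limited in that way, as its smallest possible exact p was 0.00041, or 0.0020 when adjusted. Compound-deficient cells were 0.47 (SE 0.47) above Xbp1-deficient cells, with an exact permutation p of 0.400 and an adjusted p of 0.857. That value was 0.097 without compound-deficient replicate 2. Between the wild types the ratio was higher in the compound line by 0.70 (SE 0.32), or 1.62 times, with an exact permutation p of 0.0857 and an adjusted p of 0.429.

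**Figure D4:**
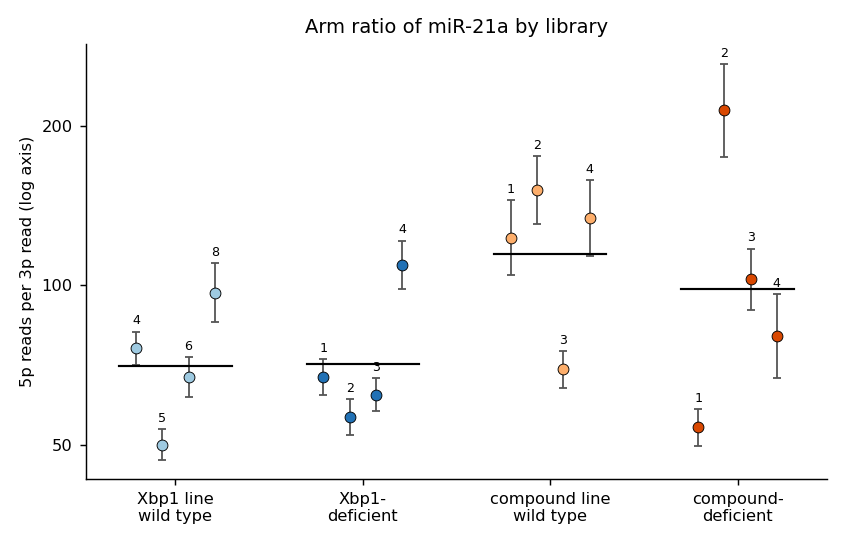
Number of miR-21a-5p reads per miR-21a-3p read (log axis), 1 point per library labelled with its replicate number, with the 95% Wilson interval for counting error and the geometric mean of each group as a line. The means are 70.5 and 71.2 in the Xbp1 line and 114 and 98.5 in the compound line, and the groups overlap.

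The arm ratio and the 5p level tended to be lower in deeper libraries. The permutations behind the p-values of these relations ignored the groups, so the p-values also count differences between groups. Across the 16 libraries, the log2 ratio and the log2 total count had Pearson's r of −0.63 (permutation p = 0.00889, adjusted over 4 relations 0.0200) and Spearman's rho of −0.74 (permutation p = 0.00165, adjusted 0.00660). Without the 2 libraries farthest from the median total, r was −0.82. Of these, compound-deficient replicate 4 had 175165 counts and a ratio of 80.3. Compound-line wild-type replicate 4 had 332923 counts and a ratio of 134. The former, the shallowest of all libraries, lies off the trend. Within the 8 libraries of the Xbp1 line r was −0.61, and within the 8 of the compound line it was −0.42, so the sign held in both. With group means removed, r was −0.51. No p was computed within lines or groups. For miR-21a-5p, the log2 CPM and the log2 total had r of −0.62 (permutation p = 0.0100, adjusted 0.0200) and rho of −0.63 (permutation p = 0.0101, adjusted 0.0201), with r of −0.62 without the 2 farthest libraries and of −0.70 and −0.69 within the Xbp1 and the compound line. With group means removed, r for this arm was −0.69.

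For miR-21a-3p the log2 CPM and the log2 total had r of 0.50 (permutation p = 0.0511, adjusted 0.0682) and rho of 0.57 (permutation p = 0.0231, adjusted 0.0308), with r of 0.73 without the 2 farthest libraries but 0.26 and 0.23 within the lines. With group means removed, r for this arm was 0.33. The levels of both arms were not positively related, with r of −0.38 (permutation p = 0.148, adjusted 0.148) and rho of −0.32 (permutation p = 0.229, adjusted 0.229), r of −0.34 without the 2 libraries farthest from the median 5p level, and −0.22 and −0.47 within the lines. The Xbp1 line had the deeper libraries, so differences between the lines in the arm ratio and in depth came together. With the slope of the log2 ratio on the log2 total within groups removed, a step chosen after seeing the data, the wild types differed by 0.43 (SE 0.21, permutation p = 0.0857, adjusted 0.429). The same step put the deficient genotypes at −0.034 (SE 0.44, permutation p = 0.971, adjusted 0.971), against 0.47 before. The slope was held fixed in the relabelling, so these p-values are not exact, and the SEs leave out the error of the slope.

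**Figure D5:**
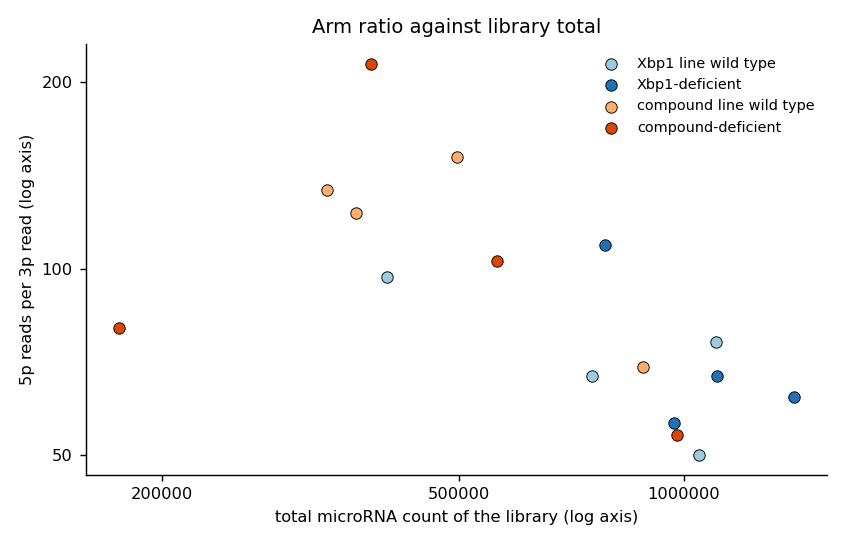
Number of miR-21a-5p reads per miR-21a-3p read against the total microRNA count of the library, both on log axes, 1 point per library coloured by group. Shallower libraries mostly have higher ratios (r = −0.63 on log2 values), and the shallowest, compound-deficient replicate 4 with 175165 counts, has a ratio of 80.3.

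Among the 254 other tested microRNAs, those whose log2 CPM followed miR-21a-5p most closely over the 16 libraries were MIMAT0000248 (r = 0.82), MIMAT0009456 (r = 0.82), MIMAT0004653 (r = 0.78), MIMAT0000211 (r = 0.76) and MIMAT0016993 (r = 0.73), where the median microRNA had r of −0.048. For miR-21a-3p they were MIMAT0000665 (r = 0.76), MIMAT0000126 (r = 0.72), MIMAT0004668 (r = 0.69), MIMAT0000154 (r = 0.67) and MIMAT0004651 (r = 0.65), with a median of 0.043. The arms shared none of these 5. In the order of likeness to the 5p arm, its own 3p arm came at place 200 of 254. These values are descriptions of libraries that share depth and line, and the microRNAs were the most alike of many.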

How the data were processed

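Per the submitters' processing notes, the tools were Bowtie 1.1.2, cutadapt 1.8.1, limma 3.42.2 and FastQC 0.11.3, with builds GRCm38 and mm10. The sources used here do not give their roles, the mismatches allowed or the treatment of reads matching several microRNAs. Per the labels' protocols, cells were sorted into Qiazol and libraries made with the TruSeq small RNA kit. The authors deposited raw counts for 808 microRNAs with at least 1 read and 45 with none, and log2 CPM values for 473. The difference of the deposited log2 values of both arms equalled the log2 ratio of counts plus 0.5. Groups and replicate numbers came from the sample descriptions.

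edgeR 4.0.16 in R 4.3.3 was fitted to all 16 libraries (TMM, filterByExpr with a count minimum of 10, 4 group means, quasi-likelihood F tests, Benjamini-Hochberg over 255 microRNAs, threshold 0.05), and steps were tested on simulated data. Arm ratios used a pseudocount of 0.5 and exact permutation tests adjusted over 5 comparisons. Relations used 100000 permutations. Alternatives covered scaling, filter, DESeq2 1.42.0, limma 3.58.1, depth, replicate block and single libraries left out. Members and lists were chosen with earlier results of these data known. Named microRNAs were the members, those sharing a seed, and the 5 most alike each. The lists of 14 activation-linked and 15 other-cell microRNAs, and arm ratios of other hairpins, were not tested because 0 identifiers were paired with names. Libraries of a group differed beyond counting noise (chi-square per degree of freedom at least 18.1), so none was counted as a duplicate.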

Additional observations from a re-analysis of the deposited data

How the results depend on the processing

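Of 190 recomputed and tested values of the arms' levels, 166 kept direction and stayed uncalled, 23 changed sign uncalled and 1 passed. Many of the 166 moved in size. Of 70 of the arm ratio, 64 kept their sign; calls are not counted there, since most of these tests could not pass. Between the wild types miR-21a-5p (reported −0.0032) was 0.065 with total counts alone, 0.16 with upper-quartile scaling, 0.0035 with limma voom, 0.028 with limma on deposited values and 0.021 fitting these groups alone, and −0.073 to 0.066 with 1 library left out. In that comparison miR-21a-3p was −0.76 without the filter and passed, with an edgeR adjusted p of 0.0318 (range 0.0318 to 0.700).

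Upper-quartile scaling also gave −0.15 for miR-21a-3p in compound-deficient cells, −0.26 for the difference of changes of miR-21a-5p and −0.10 for miR-21a-5p between the deficient genotypes, which was −0.011 without the filter and −0.13 with the depth covariate. The arm ratio between these was −0.034 with the depth slope removed. Leaving out 1 library, miR-21a-3p in compound-deficient cells ranged from −0.15 to 0.31 (below 0 without compound-deficient replicate 1 or 4 or wild-type replicate 1 or 2). The difference of changes of miR-21a-5p ranged from −0.060 to 0.16 (below 0 without compound-deficient replicate 2 or Xbp1-line wild-type replicate 4 or 8), and miR-21a-5p between the deficient genotypes from −0.054 to 0.16. The arm ratio ranged from −0.19 to 0.17 in Xbp1-deficient cells (below 0 without deficient replicate 4 or wild-type replicate 5 or 6), from −0.59 to 0.074 in compound-deficient cells and from −0.60 to 0.060 for the difference of changes (both above 0 without compound-deficient replicate 1). With 3 against 4 libraries the permutation p cannot go below 0.0571.

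Replicate numbers gave no clear sign of pairing, which does not settle whether samples were paired. Same-numbered deviations had r of −0.26 to 0.26 in the compound line and −0.069 to 0.10 between the deficient genotypes. Number 3 was its own closest match in both comparisons, and no other number was in either. With the replicate block, miR-21a-5p was −0.18 and miR-21a-3p 0.037 in compound-deficient cells, 0.12 and −0.34 between the deficient genotypes and 0.13 and 0.36 for the difference of changes, with no call changed, while calls over all microRNAs in compound-deficient cells fell from 15 to 4. The paired permutation p of the ratio was 0.625 in both. Over all alternatives, calls over all microRNAs ranged from 2 to 18 (6 as reported) in Xbp1-deficient cells, 1 to 24 (15) in compound-deficient cells, 0 to 3 (0) for the difference of changes, 0 to 32 (19) between the deficient genotypes and 0 to 14 (0) between the wild types.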

Other observations

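Within groups, libraries with more miR-21a-5p tended to have less miR-21a-3p: deviations of the log2 CPM of both arms from their group means had r of −0.53 over 16 libraries, given as a description. In compound-deficient replicate 2, miR-21a-5p was the highest of its group at 56014 CPM and miR-21a-3p the lowest of all libraries at 261 CPM. In Xbp1-deficient replicate 4, miR-21a-5p was likewise the highest of its group at 51466 CPM and miR-21a-3p the lowest at 470 CPM. Both are the shallowest or second shallowest libraries of their group, with 381259 and 783372 counts, and the part of depth in this was not tested. Xbp1-line wild-type replicate 8, the shallowest of its group with 400210 counts, had the same pattern. Its miR-21a-5p was the highest of its group at 56353 CPM and its miR-21a-3p the lowest at 581 CPM. The shallowest library of each compound-line group did not follow this pattern. Compound-deficient replicate 4, with 175165 counts, was second highest of its group in both arms (50071 and 624 CPM). Compound-line wild-type replicate 4, with 332923 counts, was highest of its group in the 5p arm (56215 CPM) and second highest in the 3p arm (420 CPM).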
